A study of Mus musculus with 12 samples.

Results

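Exercised SCA1 mice were compared with exercised WT mice to describe the genotype difference in cerebellar RNA after both genotypes had been given a running wheel. The samples were chosen by their labels for genotype and treatment, and they were 6 of the 12 libraries of the series, 3 in each group. SCA1 mice carried the Atxn1 154Q/2Q knock-in, in which an expanded repeat of 154 glutamines stands in 1 allele of the endogenous mouse gene and the other allele has 2, so that every cell that expresses Atxn1 expresses both forms. WT mice were C57BL/6J littermates. Both groups were housed alone with free access to a wheel from 4 to 16 weeks of age. Per the study's methods the wheels were removed some days before behavioural testing, and the cerebellum was taken after it. The sedentary SCA1 and WT mice, 3 each, entered the same fit as separate groups, and they share no library with the exercise comparison. Sedentary mice were housed in groups, so activity and housing cannot be told apart wherever exercise and sedentary mice are set side by side. Each library was 1 mouse, and RNA was from bulk cerebellar tissue after depletion of ribosomal RNA.

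Spinocerebellar ataxia type 1 is caused by a longer polyglutamine tract in ataxin-1, a nuclear protein that binds the transcriptional repressor Capicua and the nuclear receptor RORα. Purkinje cells, the output neurons of the cerebellar cortex, are the cells best known to be affected. They read glutamate from parallel fibres of granule cells through the receptor mGluR1, which releases calcium from stores through phospholipase C and the IP3 receptor, and they hold high levels of calcium-binding proteins such as calbindin.

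The 6 exercise libraries held between 22944278 and 25312382 read pairs assigned to genes on the reverse strand, and 20341 genes were tested. Atxn1 itself (chr13:45703231-46118484, minus strand, GRCm39) read 147, 193 and 184 CPM (counts scaled to the library total) in SCA1 and 159, 170 and 170 CPM in WT mice, so the groups overlapped and the log2 fold change (log2FC, SCA1 minus WT) was 0.07 ± 0.11 (SE). Gene counts do not see the length of the repeat, so they do not check the genotype labels. SCA1 exercise mouse 55 stood apart. It lay at -60.3 on the first principal component of all 12 libraries, and the other 5 exercise libraries lay between 10.75 and 27.4. In that library 6.33% of read pairs mapped to more than 1 place, compared with 2.26% to 2.92% in the other 5, and its summed CPM of 6 tested Hox and brainstem genes was 36.0, compared with 0.351 to 3.23. SCA1 sedentary mouse 16 stood apart in the same direction, at -93.8. By their level of Xist, 2 SCA1 and 1 WT exercise mice were female, and 1 SCA1 and 2 WT exercise mice were male, so sex was not balanced between the groups. For the 25 genes named below by their p or by the sedentary comparison, the log2 difference was larger within males in 18. It had the same sign within females and within males in 25. That could not be otherwise, since the exercise groups did not overlap for any of the 25, so it is no check on sex. The part that brainstem tissue, RNA quality or sex had in any result was not tested except where a value is given.

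No gene passed the thresholds for a differentially expressed gene (DEG), set at 0.05 for the adjusted p and at 0.5 for the size of the log2FC. The percentage called was 0 of the 20341 genes, and the lowest adjusted p was 0.960 (edgeR quasi-likelihood test, Benjamini-Hochberg). At an unadjusted p under 0.05 there were 295 genes with higher values in SCA1 mice (1.45%) and 301 with lower values (1.48%). All 3 SCA1 mice lay above all 3 WT mice for 1489 genes (7.32%) and below them for 1407 (6.92%). DESeq2 called 2 genes on all 12 libraries and 78 on the 6 exercise libraries alone (0.403% of those it tested), while edgeR on the same 6 libraries called 0. The interaction of genotype and exercise, which asks whether the genotype difference itself differed between exercise and sedentary mice, had 0 DEGs by edgeR, 769 genes at an unadjusted p under 0.05 and 2 DEGs by DESeq2.

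In sedentary mice 7 genes were DEGs in the same fit (0.0344%), and the exercise mice give an independent reading of them because no library is shared. All 7 had the same direction in exercise mice, with no overlap between the 3 SCA1 and 3 WT exercise mice, and with smaller values. The ratio of the exercise log2FC to the sedentary log2FC ran from 0.327 to 0.510 with a median of 0.474. The genes were selected on the sedentary values, which by itself makes those values larger. The adjusted p for the interaction was 0.9999 for all 7 (edgeR), while their unadjusted interaction p ran from 0.0029 for Gcnt1 to 0.0296 for Nrg3.

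Sdk1 (chr5:141227245-142201341), a cell adhesion molecule of synapses, had the larger difference of the 2 higher genes. It read 14.3, 13.7 and 13.3 CPM in SCA1 exercise mice 55, 122 and 198, and 8.06, 8.89 and 8.12 CPM in WT exercise mice 121, 197 and 201. The exercise groups lay far apart relative to their spread, at 13.8 ± 0.501 against 8.36 ± 0.461 CPM (SD, n = 3 each). The log2FC was 0.72 ± 0.17 (95% interval 0.36 to 1.08, adjusted p = 0.960) in exercise and 1.43 in sedentary mice, where SCA1 mice read 18.7 to 19.99 CPM. The log2 difference was 0.78 within females and 0.65 within males. Nrg3, a neuregulin ligand of the receptor ErbB4, was the other higher gene. It read 39.9, 43.6 and 44.2 CPM in SCA1 and 32.9, 36.8 and 33.8 CPM in WT exercise mice, a log2FC of 0.30 ± 0.09 compared with 0.61 in sedentary mice.

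Among the 5 lower genes, Pcp4 (chr16:96268806-96326997), a small calmodulin-binding protein of Purkinje cells, read 18.0, 13.9 and 13.6 CPM in SCA1 and 21.1, 24.99 and 22.7 CPM in WT exercise mice. Mouse 55 was the nearest of the SCA1 mice to WT. The log2FC of Pcp4 was -0.60 ± 0.13 (95% interval -0.88 to -0.31), compared with -1.17 in sedentary mice, and it was -0.51 within females and -0.76 within males. Gcnt1 (chr19:17303505-17350208), an enzyme that branches O-linked glycans, had the widest gap between exercise and sedentary SCA1 mice. It read 7.30, 4.67 and 4.07 CPM in SCA1 and 7.80, 8.85 and 10.6 CPM in WT exercise mice, while sedentary SCA1 mice read 2.12 to 2.31 CPM. Mouse 55 was again close to the WT mice, and the log2FC was -0.76 with it and -1.04 without it. Calb1 (chr4:15881155-15908085), the gene of calbindin, read 466, 491 and 443 CPM in SCA1 and 588, 555 and 543 CPM in WT exercise mice. The ranges of Calb1 did not overlap, but its log2FC of -0.27 ± 0.11 was a smaller difference than the -0.82 of sedentary mice. Hpcal1, a calcium sensor of the visinin-like family, and Cep76, a centrosomal protein, had log2FCs of -0.32 ± 0.10 and -0.39 ± 0.11 in exercise mice and -0.67 and -0.83 in sedentary mice.

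**Figure D1:**
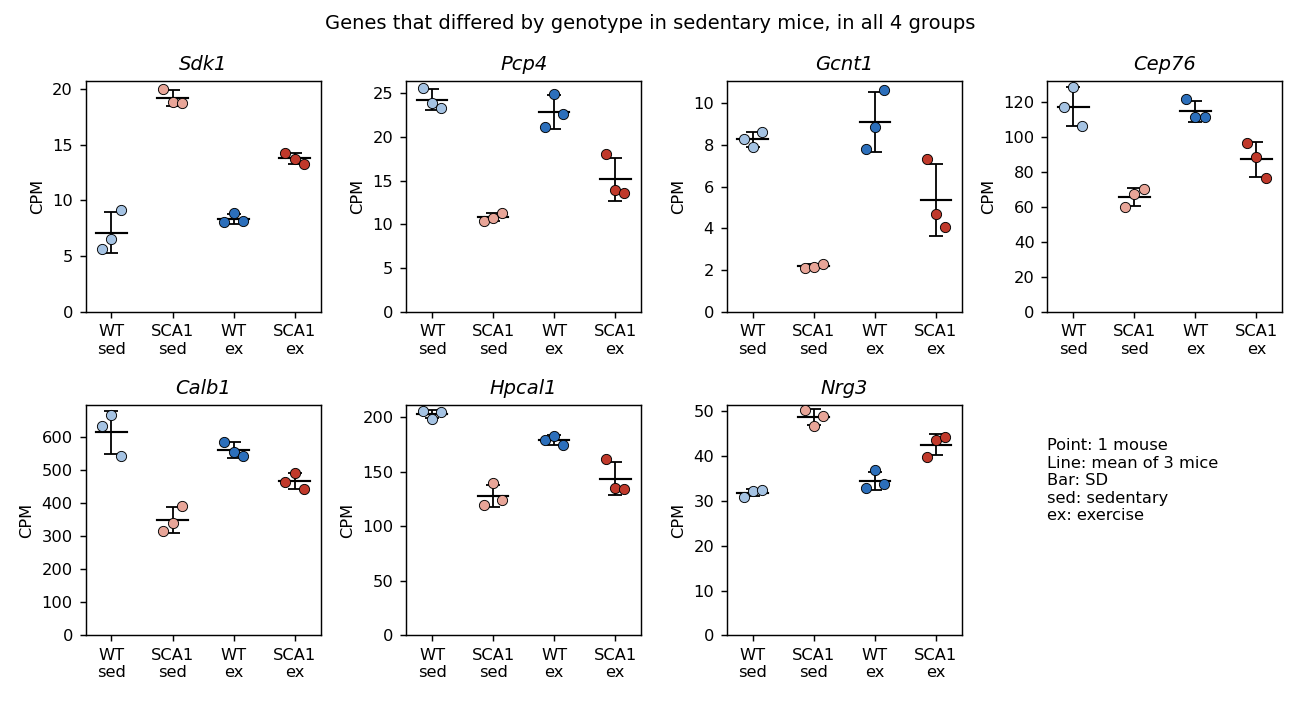
CPM of the 7 sedentary DEGs in each mouse of the 4 groups, with the y axis from 0, the mean of 3 mice as a line and the SD as a bar. The SCA1 exercise mice lie between the SCA1 sedentary and the WT exercise mice, as in Sdk1 with 13.3 to 14.3 CPM, except for Hpcal1, where the SCA1 exercise and sedentary mice overlap.

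Of 16 Purkinje cell genes, 15 had lower values in SCA1 exercise mice and 4 had an unadjusted p under 0.05, all lower, where 1.48% of all genes did so, while none was a DEG. For 10 of the 16 the groups did not overlap, all lower, where 6.92% of all genes did so. The median log2FC of the list was -0.23, compared with 0.00 over all genes tested, and it was -0.55 in sedentary mice. In bulk tissue, fewer Purkinje cells and less of these RNAs per cell cannot be told apart. The summed CPM of the list was 9530, 8839 and 7628 in SCA1 exercise mice 55, 122 and 198, and 10644, 10260 and 9999 in the WT mice. Thus mouse 198 was the lowest, and mouse 55 the nearest to WT. Without mouse 55 the median was -0.29 and 5 genes had an unadjusted p under 0.05, as did 655 of all 20341 genes.

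The 4 genes of that list below 0.05 were Pcp4, Calb1, Rgs8 and Gng13. Rgs8, a regulator that ends G protein signals, read 1068, 851 and 765 CPM in SCA1 and 1171, 1198 and 1120 CPM in WT exercise mice, a log2FC of -0.38 ± 0.14. Gng13, a G protein gamma subunit, read 58.8, 36.2 and 38.2 CPM in SCA1 and 70.8, 62.0 and 58.7 CPM in WT mice, a log2FC of -0.52 ± 0.19. Its groups touched, since SCA1 mouse 55 lay just above the lowest WT mouse. The other members named here had small differences. Itpr1, the IP3 receptor of calcium stores, had a log2FC of -0.23, the carbonic anhydrase-related Car8 -0.22, the glutamate transporter Slc1a6 -0.19, and the phosphatase inhibitor Ppp1r17 -0.20. The notch ligand Dner had -0.25, the IP3 phosphatase Inpp5a -0.21, the scaffold Homer3 -0.20, the G protein modulator Pcp2 -0.22 and the corepressor Skor2 -0.23. Foxp2, a transcription factor, was the exception at 0.06, and its sign changed in 5 of the alternatives.

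Within sexes, the difference for Rgs8 and Gng13 was larger among males. For Rgs8 the log2 difference was -0.63 among males and -0.23 among females, and for Gng13 it was -0.79 and -0.35. The female SCA1 mice include mouse 55 and the male SCA1 group is mouse 198 alone, so sex and mouse cannot be told apart here. In exercise mice 15 of the 16 genes had a smaller absolute log2FC than in sedentary mice. That sedentary comparison holds mouse 16, in which the list summed to 5849 CPM, compared with 7741 and 7297 CPM in sedentary SCA1 mice 194 and 195. The sums of these last mice lay close to or within the range of the SCA1 exercise mice. Leaving out mice 16 and 55 gave a median of -0.29 in exercise and -0.45 in sedentary mice. An unadjusted interaction p under 0.05 was found for 5 of the 16, and for 769 of all 20341 genes (edgeR).

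**Figure D2:**
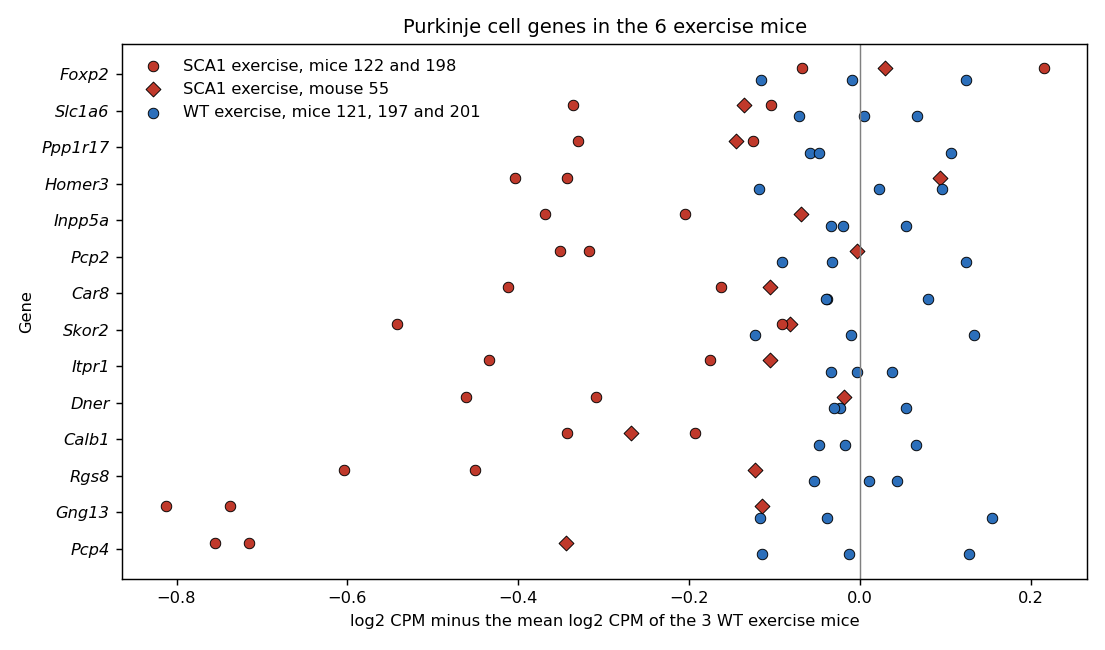
Log2 CPM of 14 Purkinje cell genes in the 6 exercise mice, each minus the mean of the 3 WT exercise mice, with 1 row per gene and 1 point per mouse. SCA1 mice 122 and 198 lie left of the WT mice for most genes, mouse 55 (diamond) lies nearer to WT, and Foxp2 (log2FC 0.06) does not follow the others.

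The genes of lowest unadjusted p that did not overlap between the exercise groups, with an absolute log2FC over 0.5 and an average log2 CPM of at least 1, were read in the same way, 10 in each direction. They are given as values and not as changes, since their adjusted p was 0.960. All 20 had the same sign in sedentary mice, where 17 also did not overlap in that direction and 16 had an unadjusted p under 0.05. Over all genes, 59.5% had the same sign in both comparisons and 10.1% had an unadjusted p under 0.05 in sedentary mice. No overlap in sedentary mice held for 5.60% of all genes in the higher and 5.76% in the lower direction. Without mice 16 and 55, all 20 kept their sign in both comparisons, and 15 had an unadjusted p under 0.05 in sedentary mice. Where groups do not overlap, leaving out a mouse cannot change the sign. The kept sign is therefore no check for the 20 in exercise mice or for the 17 in sedentary mice.

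Of the 10 higher genes, Lrp1b, a large endocytic receptor of the LDL receptor family, read 180, 274 and 295 CPM in SCA1 and 159, 151 and 154 CPM in WT exercise mice. The WT mice were close together, and mouse 55 was the SCA1 mouse nearest to them. The log2FC of Lrp1b was 0.69 ± 0.15 in exercise mice and 0.86 in sedentary mice. Fam163b had the largest value of the 10, with 17.1, 18.1 and 17.3 CPM in SCA1 and 8.32, 6.05 and 6.39 CPM in WT mice, a log2FC of 1.34 ± 0.30. Mouse 55 did not stand apart for that gene, and the sedentary log2FC was 1.06. Kcnb2, a subunit of delayed rectifier potassium channels, had 23.5, 51.2 and 35.9 CPM against 21.9, 17.4 and 21.0 CPM, a log2FC of 0.88 ± 0.23 that was 1.13 without mouse 55. Csmd3, a transmembrane protein with CUB and sushi domains, had a log2FC of 0.58, and Minar1 had 0.81. The transcription factor Sox4 had 0.69, the cell surface glycoprotein Tpbg 0.88, the heparan sulfate sulfotransferase Hs3st5 0.69 and Macrod1, which removes ADP-ribose from proteins, 0.73. For Macrod1 and Tpbg the sedentary groups overlapped, with log2FCs of 0.26 and 0.36.

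Of the 10 lower genes, Prom2, a membrane protein of cell protrusions, had the lowest unadjusted p of all genes at 0.00024. It read 5.36, 4.17 and 4.20 CPM in SCA1 and 8.98, 7.89 and 7.64 CPM in WT exercise mice, a log2FC of -0.83 ± 0.16, and -0.84 in sedentary mice. The 2 genes that DESeq2 called on all 12 libraries were Prom2 and the unclassified model Gm37661, which read at most 1.87 CPM in SCA1 and at least 4.25 CPM in WT exercise mice. Mybpc3, known as a myosin-binding protein of heart muscle, read 29.5, 19.3 and 17.5 CPM in SCA1 and 42.6, 42.7 and 44.2 CPM in WT mice. Its log2FC was -0.97 ± 0.21 in exercise and -1.28 in sedentary mice. Tspan18, a tetraspanin, had -0.95, but in sedentary mice its groups overlapped at -0.32. Ccdc63 had -1.20, the kinase Tssk5 -1.01, the phosphohistidine phosphatase Phpt1 -0.56 and the centrosomal protein Cep72 -0.51. Kcnip4 and Pcp4 completed the 10.

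Kcnip4 (chr5:48546844-49682249, minus strand) encodes a calcium-sensing subunit of A-type potassium channels. It read 83.7, 89.6 and 74.5 CPM in SCA1 exercise mice 55, 122 and 198, and 117, 124 and 113 CPM in WT exercise mice. The log2FC was -0.52 ± 0.12 in exercise and -0.78 in sedentary mice, and mouse 55 lay between the other SCA1 mice. Inside the gene, which spans 1135 kb, 24 further annotated models on the same strand were tested, and all 24 are of the class awaiting experimental evidence (TEC). They lie between 5.97 and 987 kb from its start site. These models share a strand and a host gene, so reads from them and from unspliced Kcnip4 RNA cannot be told apart, and they are not 24 separate observations. The locus was noticed after the values were seen.

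All 24 models had lower values in SCA1 exercise mice with no overlap between groups, and 23 had an unadjusted p under 0.05, where 6.92% and 1.48% of all genes did so. They made up 7.64% of the 301 genes below that limit in the lower direction. Their summed CPM was 490, 823 and 606 in SCA1 exercise mice 55, 122 and 198, and 1109, 1377 and 1215 in WT mice 121, 197 and 201. The means were 640 ± 169 and 1234 ± 135 CPM (SD, n = 3 each), and the exact two-sided permutation p was 0.1, the smallest that 3 mice against 3 can give. The log2FC of the models ran from -1.07 to -0.83 with a median of -0.94, a larger difference than that of Kcnip4 itself. In sedentary mice, the median was -0.95 and 13 of the 24 did not overlap. The median of all 1688 TEC models tested was -0.20, and -0.06 without mouse 55, while that of the 24 models was -0.79 without mouse 55. In mouse 55, 44.1% of read pairs lay in no gene, compared with 50.9% to 56.8% in the other 5 exercise mice, and in mouse 16 it was 39.3%. These were also the mice with the lowest sums over the 24 models in their groups, at 490 and 244 CPM, and the part of this library trait in the result was not tested. Without mice 16 and 55, the median of the 24 was -0.79 in exercise and -0.63 in sedentary mice. DESeq2 on the 6 exercise libraries called 23 of the 24, which were thus 23 of its 78 genes.

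**Figure D3:**
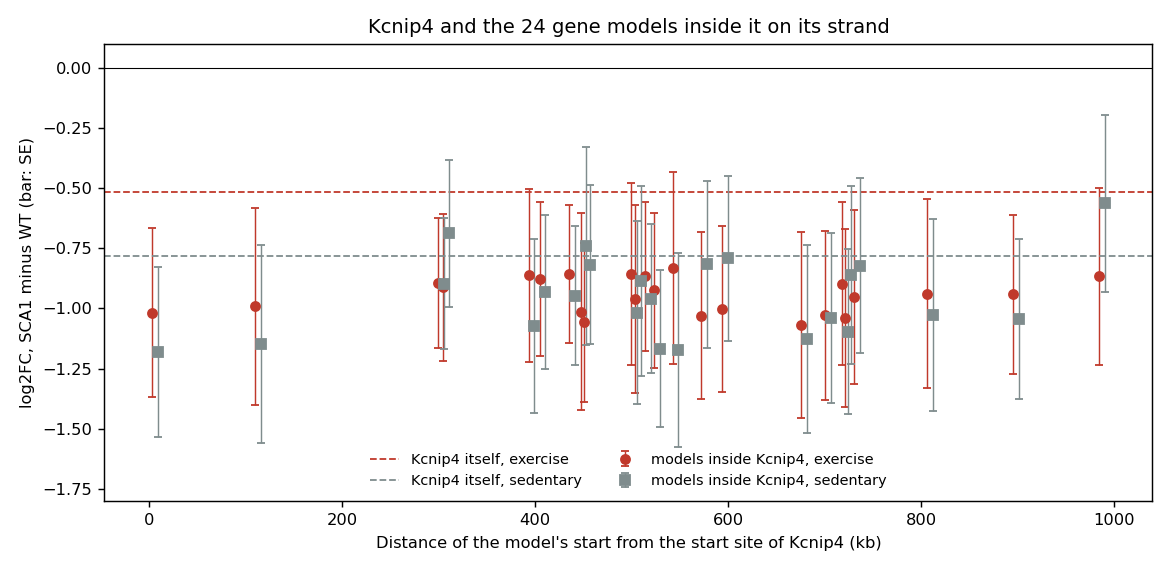
Log2FC (SCA1 minus WT, bar SE) of the 24 models inside Kcnip4 against the distance in kb from the start site of Kcnip4, in exercise (circles) and sedentary (squares) mice, with dashed lines for Kcnip4 itself. The exercise values lie between -1.07 and -0.83 along the whole gene, below the -0.52 of Kcnip4.

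Leaving out mice 16 and 55 brought 37 genes past the thresholds in exercise mice, 10 higher (0.0488%) and 27 lower (0.132%). That left 2 SCA1 and 3 WT exercise mice. Without mouse 55 alone there were 5 DEGs, and without mouse 16 alone there was 1. Mouse 16 is not in the exercise comparison, but leaving it out changed the estimate of spread and the number of genes tested, which was 20738. Leaving out WT exercise mouse 121 also gave 1. The sedentary comparison of the same fit shares no library with the exercise comparison. There all 37 genes had the same sign, 36 of them with an unadjusted p under 0.05, and 25 were DEGs. Over all 20494 genes of that fit 45.4% had the same sign in both comparisons, and its number of sedentary DEGs is given in the last section. With all 12 libraries, 10.1% of all genes had an unadjusted p under 0.05 in sedentary mice. That share is not given here for the fit without the 2 mice. These genes were named after their values were seen.

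Of the 27 lower genes, the long noncoding Gm39465 had the largest difference. It read 15.3, 2.21 and 0.986 CPM in SCA1 exercise mice 55, 122 and 198, and 24.2, 29.3 and 27.3 CPM in WT exercise mice. Mouse 55 lay nearer to WT than to the other SCA1 mice, while sedentary SCA1 mice, including mouse 16, read 1.24 to 3.91 CPM. Without mice 16 and 55 its log2FC was -4.06 ± 0.30 in exercise mice (edgeR adjusted p = 5.4e-05) and -2.69 in sedentary mice. Igfbp5, which binds insulin-like growth factors, read 178, 101 and 72.4 CPM in SCA1 and 217, 213 and 215 CPM in WT exercise mice. It was lower by the same order of mice, with a log2FC of -1.30 ± 0.12 without mice 16 and 55 and -0.87 with them. Clstn2, a calsyntenin of the synaptic membrane, read 93.2, 58.0 and 44.3 CPM in SCA1 and 103, 118 and 105 CPM in WT mice, a log2FC of -1.07 ± 0.12 without the 2 mice.

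The lower genes also held Plcb3, a phospholipase C of the mGluR1 pathway, at -0.93 ± 0.12, and Myo15a, an unconventional myosin, at -2.79 ± 0.33. Mouse 55 read 73.6 CPM for Plcb3, close to the 75.7 to 78.6 CPM of WT mice, and the other SCA1 mice read 44.2 and 36.1 CPM. The carbonic anhydrase Car9 was lower at -2.41 ± 0.35 and the dynein heavy chain Dnah11 at -0.94 ± 0.13. Neb, a large sarcomere protein, was lower at -0.58 ± 0.08 and was as low in mouse 55, at 49.3 CPM, as in the other SCA1 mice at 53.0 and 52.3 CPM, compared with 77.5 to 81.7 CPM in WT. Pcp4, Gcnt1, Prom2, Mybpc3, Ccdc63, Tssk5, Tspan18 and Gm37661 were among the 27 as well. Tspan18 was the gene without an unadjusted p under 0.05 in sedentary mice, at -0.05.

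The 10 higher genes were Lrp1b, Synpr, Slc44a5, Kcnb2, Marcks, Sox4, Csmd3, Necab1, Kctd8 and Adamts18. Synpr, a synaptic vesicle membrane protein, read 44.1, 97.7 and 86.6 CPM in SCA1 and 50.8, 47.0 and 43.4 CPM in WT exercise mice, so mouse 55 lay within the WT range. Marcks, a substrate of protein kinase C at the membrane, read 99.2, 149 and 156 CPM in SCA1 and 97.7, 86.7 and 91.0 CPM in WT mice. Its log2FC was 0.74 ± 0.11 without mice 16 and 55 and 0.47 in sedentary mice. Kctd8, an auxiliary subunit of GABA-B receptors, was higher by 0.54 ± 0.10 and Necab1, a calcium-binding protein, by 0.86 ± 0.15. Adamts18 read 27.9 CPM in mouse 55, below the 42.5 to 52.3 CPM of WT exercise mice, and 66.85 and 81.4 CPM in mice 122 and 198. Mouse 16, at 34.7 CPM, also lay below the 47.7 to 55.2 CPM of sedentary WT mice. With all mice the exercise log2FC of Adamts18 was 0.30 ± 0.36.

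Across all 20341 genes the log2FC in exercise mice had a correlation of r = 0.41 with that in sedentary mice, given as a description over genes, which are not independent. Without mice 16 and 55 it was r = -0.08. Without mouse 16 alone it was r = -0.03, and without mouse 55 alone r = -0.07. The correlation over all genes thus rested on the 2 libraries that stood apart, whereas the 37 genes above had the same sign in both comparisons without them.

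**Figure D4:**
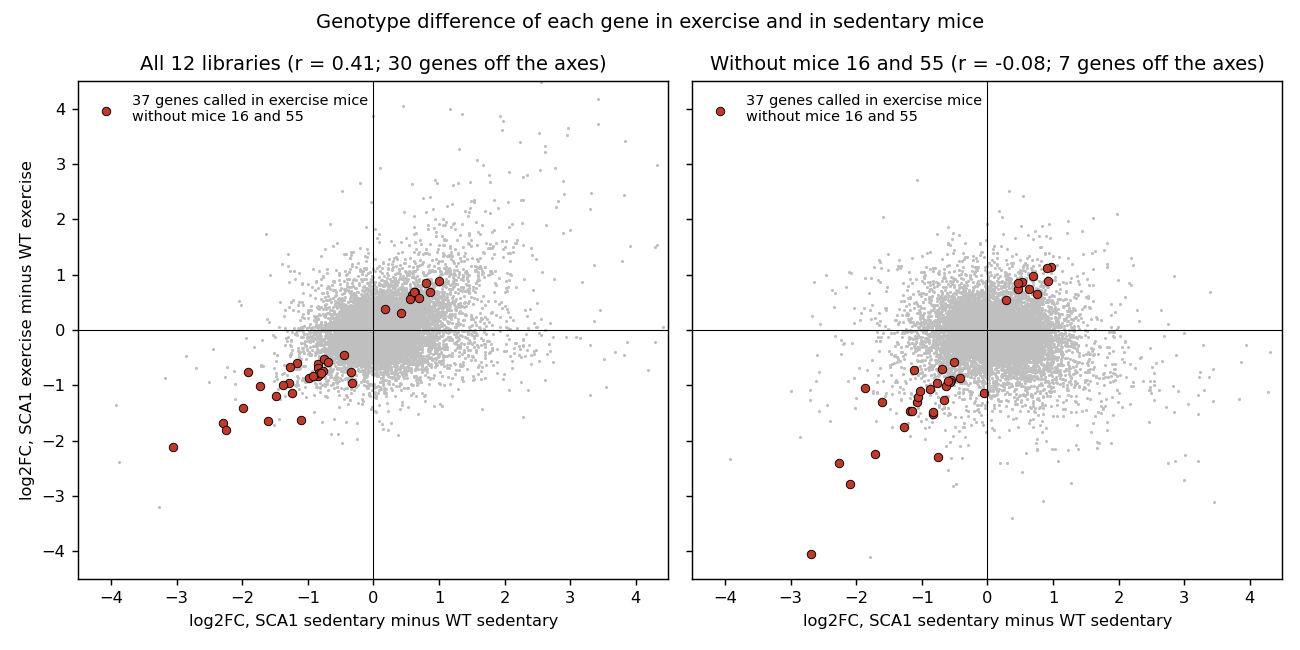
Log2FC of each gene (grey) in exercise mice (y axis) against sedentary mice (x axis), with all 12 libraries on the left and without mice 16 and 55 on the right. The 37 genes called without the 2 mice (red) lie at the lower left and upper right in both panels, while the grey cloud loses its slope (r = 0.41 and r = -0.08).

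Ataxin-1 and its partners showed small differences in exercise mice. Of these 11 genes, 0 reached an unadjusted p of 0.05 and 0 were without overlap, and the log2FC ran from -0.14 to 0.09. Capicua (Cic) read 296, 295 and 290 CPM in SCA1 and 293, 317 and 318 CPM in WT mice, and Rora had a log2FC of -0.14. Of 12 tested target genes of Capicua, 8 were above 0 and the median was 0.13, and 1 had an unadjusted p under 0.05. This was Ccnd1, the cyclin that drives entry into S phase, with 23.8, 30.0 and 33.7 CPM in SCA1 and 23.6, 21.9 and 21.2 CPM in WT mice, a log2FC of 0.39 ± 0.13. The ETS factors Etv4 and Etv5, the targets best known for Capicua, had log2FCs of 0.15 ± 0.16 and 0.12 ± 0.09. The groups overlapped for both.

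The octamers bound by Capicua, TGAATGAA and TGAATGGA, were searched on both strands of the promoter, from 250 bases before to 50 bases after the start of the canonical transcript (GENCODE M39, GRCm39). The octamers differ from each other in the 7th letter, so 1 start position cannot match both. TGAATGAA was present in 1.13% and TGAATGGA in 0.929% of 14214 promoters of tested genes. Among 11 target genes of Capicua, 3 promoters held TGAATGAA and 3 held TGAATGGA. Among 23 promoters of the genes named above by p or by the sedentary comparison, TGAATGAA was in 0 and TGAATGGA in 1, that of Cep72. The half-site of ROR receptors, TAGGTCA, was in 0 of the 23 and in 1.93% of all promoters. The promoters printed here include those of Etv4 and Etv5, as the targets whose octamers are known best. Those of Cep72 and Pcp2 are printed too, since they held the only octamers among the searched promoters of the named and the Purkinje cell genes. All 4 are on the minus strand and read 5′ to 3′, with octamers on either strand in capitals. The windows are chr11:101676148-101676447, chr16:22258434-22258733, chr13:74210406-74210705 and chr8:3675000-3675299.
Etv4: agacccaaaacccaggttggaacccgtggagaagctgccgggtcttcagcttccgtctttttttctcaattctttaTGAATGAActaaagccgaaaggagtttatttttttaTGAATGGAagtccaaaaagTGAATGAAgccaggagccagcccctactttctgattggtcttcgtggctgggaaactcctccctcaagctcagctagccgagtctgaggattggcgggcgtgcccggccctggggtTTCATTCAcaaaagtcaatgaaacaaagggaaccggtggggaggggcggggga
Etv5: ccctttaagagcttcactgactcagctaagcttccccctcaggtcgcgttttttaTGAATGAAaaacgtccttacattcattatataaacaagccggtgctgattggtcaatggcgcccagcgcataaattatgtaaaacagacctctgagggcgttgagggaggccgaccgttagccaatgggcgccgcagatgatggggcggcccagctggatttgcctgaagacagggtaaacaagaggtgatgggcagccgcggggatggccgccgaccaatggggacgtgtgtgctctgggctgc
Cep72: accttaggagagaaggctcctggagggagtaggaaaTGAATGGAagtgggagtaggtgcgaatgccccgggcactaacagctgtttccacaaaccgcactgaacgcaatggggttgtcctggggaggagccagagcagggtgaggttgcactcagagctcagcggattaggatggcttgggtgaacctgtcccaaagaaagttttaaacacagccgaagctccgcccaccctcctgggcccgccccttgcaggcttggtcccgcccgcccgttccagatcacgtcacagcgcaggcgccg
Pcp2: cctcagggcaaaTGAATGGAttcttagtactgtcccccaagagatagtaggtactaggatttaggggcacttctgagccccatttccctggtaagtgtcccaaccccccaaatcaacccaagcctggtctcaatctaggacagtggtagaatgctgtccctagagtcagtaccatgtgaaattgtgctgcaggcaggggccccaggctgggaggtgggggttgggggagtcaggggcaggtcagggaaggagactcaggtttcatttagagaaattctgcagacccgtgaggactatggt

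In Etv4 the octamers begin at -174, -138, -119 and -3 from the start site, the last of them on the opposite strand, in Etv5 at -195, in Cep72 at -214 and in Pcp2 at -238. A match is a description of the letters and not of binding.

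The pathway from mGluR1 to calcium stores showed the same direction as the Purkinje list, with which it shares members. Of 17 genes 14 had lower values in SCA1 exercise mice, and 6 were lower without overlap, where 6.92% of all genes were. Another 1 was higher without overlap, and the median was -0.18, compared with -0.27 in sedentary mice. Plcb3 was the 1 gene with an unadjusted p under 0.05, at -0.59 with all mice. Of 9 genes of the zebrin bands, which divide Purkinje cells into stripes, 8 were lower, with a median of -0.19 that was -0.30 without mouse 55. The potassium channel tetramerization protein Kctd12 read 213, 188 and 131 CPM in SCA1 and 239, 229 and 250 CPM in WT mice, a log2FC of -0.43 ± 0.17. Aldoc, the aldolase that defines zebrin-positive cells, read 1339 CPM in mouse 55 and 735 and 632 CPM in the other SCA1 mice, compared with 931 to 1096 CPM in WT mice. Mouse 55 was above and the other 2 below all WT mice, so the log2FC was -0.14 with it and -0.53 without it.

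Of 19 channels of neuronal firing 12 were lower, with a median of -0.12 and 0 at an unadjusted p under 0.05. Of the 19, 5 were lower and 0 higher without overlap, where 6.92% and 7.32% of all genes were. Kcnma1, the BK channel, read 428, 381 and 342 CPM in SCA1 and 447, 454 and 431 CPM in WT mice, a log2FC of -0.21 ± 0.12 without overlap, compared with -0.41 in sedentary mice. Kcnc1 and Kcnd3, subunits of Kv3 and Kv4 channels, had log2FCs of -0.33 and -0.25 without overlap. Of 20 glutamate and GABA receptor genes 16 were lower with a median of -0.07. Grm4, the metabotropic receptor of parallel fibre terminals, read 461, 357 and 323 CPM in SCA1 and 580, 579 and 683 CPM in WT mice, a log2FC of -0.69 ± 0.28, and -0.76 in sedentary mice. Calcium-binding proteins had a median of 0.16 over 16 genes, and -0.03 without mouse 55. Synapse organizers had a median of 0.09 over 18 genes, of which 10 were above 0. An unadjusted p under 0.05 was found for 2 of them, both higher, where 1.45% of all genes did so. The groups did not overlap for 3 higher and 3 lower genes, where 7.32% and 6.92% of all genes did so. Among the lower members was Cbln3, a granule cell partner of Cbln1. It read 658, 874 and 773 CPM in SCA1 and 1032, 960 and 927 CPM in WT mice. The log2FC of Cbln1 was -0.27. Of 31 genes of other inherited ataxias 19 were lower with a median of -0.07, and 1 had an unadjusted p under 0.05, Ppp2r2b at 0.47.

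Values of several other cell types stood apart in mouse 55. Of 12 granule cell genes 11 were lower with a median of -0.23, and their summed CPM was 5431 in mouse 55 compared with 7674 to 8235 in the other 5 exercise mice, so the median was -0.06 without it. All 16 oligodendrocyte genes were above 0 with a median of 0.50. Their summed CPM was 6172, 2909 and 4105 in SCA1 mice 55, 122 and 198 and 3007 to 3158 in WT mice, so mouse 122 was below the WT mice. Without mouse 55 the median was 0.20. All 14 microglia genes were also above 0, with a median of 0.34 and 0.19 without mouse 55. Aif1, a marker of microglia, had 1.51, 0.667 and 1.03 CPM in SCA1 and 0.438, 0.376 and 0.242 CPM in WT mice, a log2FC of 1.59 ± 0.42 at a low level. Bergmann glia and astrocyte genes had a median of 0.11 over 16 genes, which was -0.09 without mouse 55. None of these lists held a DEG.

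The Hox and brainstem list had 6 tested genes with a median of 3.41, and -0.79 without mouse 55. The level of Hoxb5 was 9.92 CPM in mouse 55, 0 and 0.214 CPM in SCA1 mice 122 and 198 and at most 0.970 CPM in WT mice. Choroid plexus genes varied within both groups, with a summed CPM of 2786, 982 and 1413 in SCA1 and 3250, 1443 and 1816 in WT exercise mice. Their median log2FC was -0.33, the ranges overlapped, and without mouse 55 the median was -0.85. The 5 erythrocyte genes had a median of 1.198 and summed to 81.3, 19.8 and 64.8 CPM in SCA1 and 15.5 to 35.2 CPM in WT mice, so mouse 122 was within the WT range. Alas2, the heme synthesis enzyme of red cells, read 3.02, 1.59 and 3.60 CPM in SCA1 and 0.657, 0.626 and 1.17 CPM in WT mice, with a log2FC of 1.73 ± 0.46. The medians were -0.27 for 9 meningeal and fibroblast genes, -0.05 for 43 collagens, -0.11 for 14 endothelial and pericyte genes, 0.04 for 10 interneuron and brush cell genes and -0.19 for 7 midbrain and forebrain genes. Without mouse 55 those of the meninges and the collagens were -0.51 and -0.36.

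Genes of energy and protein synthesis held no DEG. Of 81 nuclear genes of oxidative phosphorylation 77 were above 0 with a median of 0.27, 15 did not overlap and 3 had an unadjusted p under 0.05, all higher, where 7.32% and 1.45% of all genes did so. The median was -0.08 in sedentary mice. The summed CPM of that list was 6818, 5380 and 6358 in SCA1 and 5548, 5042 and 4981 in WT exercise mice, so mouse 122 lay within the WT range. Cox6c, a subunit of cytochrome oxidase, read 43.5, 37.0 and 44.5 CPM in SCA1 and 35.2, 34.4 and 32.9 CPM in WT exercise mice, a log2FC of 0.29 ± 0.11. Of 79 cytosolic ribosomal protein genes 77 were above 0 with a median of 0.25, and -0.17 in sedentary mice, while 2 did not overlap and 1 had an unadjusted p under 0.05. The summed CPM of the ribosomal list was 6013, 4563 and 5713 in SCA1 and 4946, 4365 and 4340 in WT exercise mice, so mouse 122 lay within the WT range. Without mouse 55 both medians were 0.18. The 11 mitochondrially encoded genes had a median of 0.06. The 21 chaperones had a median of 0.16 and 0.05 without mouse 55, and 0 had an unadjusted p under 0.05. Of the 21, 6 were higher without overlap, among them Hspa8 at 0.26, and 1 was lower, where 7.32% and 6.92% of all genes were.

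**Figure D5:**
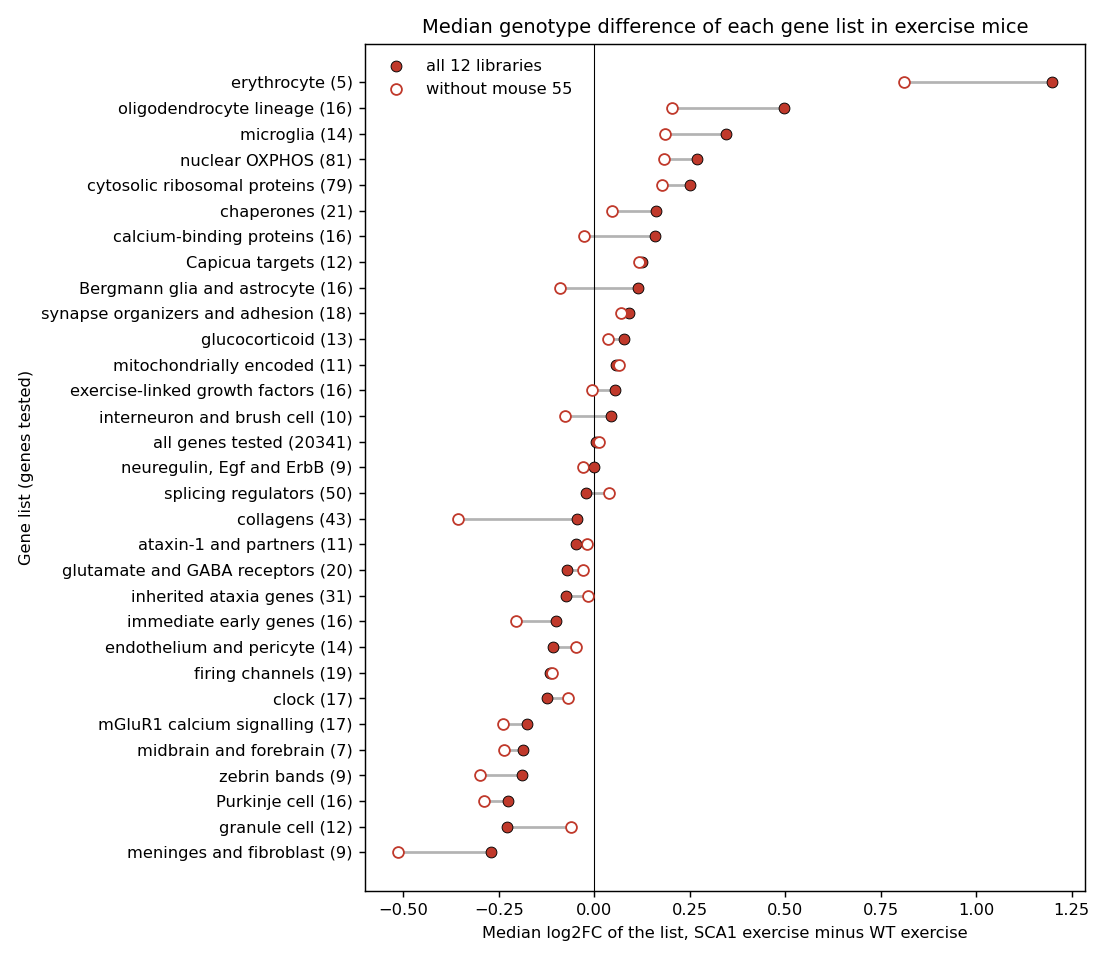
Median log2FC (SCA1 minus WT exercise) of each gene list, with the number of genes tested in brackets, for all 12 libraries (filled) and without mouse 55 (open). The Hox and brainstem and choroid plexus lists are not drawn. The Purkinje list stays at -0.23 and -0.29, while the granule cell list goes from -0.23 to -0.06 and the oligodendrocyte list from 0.50 to 0.20.

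Genes that respond to activity differed little between the exercise genotypes. The tissue was taken days after the wheels were removed and after other motor tests, so these are not values of mice while running. The 16 immediate early genes had a median of -0.10 with 0 at an unadjusted p under 0.05, and 0.57 in sedentary mice. Their summed CPM was 382.9, 284.9 and 190.1 in sedentary SCA1 mice 16, 194 and 195, so mouse 16 was the highest. It was 206.5, 235.5 and 209.6 in sedentary WT mice, so these groups overlapped. In exercise mice Egr1 read 26.7, 24.5 and 24.1 CPM in SCA1 and 33.3, 32.1 and 27.4 CPM in WT, a log2FC of -0.30 ± 0.17. Of 17 clock genes 15 were lower with a median of -0.12. The groups did not overlap for 4 of the 17, all lower, where 6.92% of all genes did so. Nr1d1, a repressor of the clock, was among these 4 with -0.29 ± 0.14. Of 16 growth factors and regulators linked to exercise, 0 had an unadjusted p under 0.05, and Bdnf, the neurotrophin, read 13.5, 14.6 and 14.5 CPM in SCA1 and 19.4, 16.3 and 13.5 CPM in WT mice. The 13 glucocorticoid genes had a median of 0.08. Of these, 2 were higher and 1 lower without overlap, where 7.32% and 6.92% of all genes were. Ddit4 and Sgk1, both induced by glucocorticoids, had log2FCs of 0.57 ± 0.19 and 0.39 ± 0.17 without overlap, and 0.33 and 0.24 without mouse 55. Of 50 splicing regulators 1 had an unadjusted p under 0.05, Khdrbs2 at 0.41, and the median was -0.02. The 9 neuregulin, Egf and ErbB genes had a median of 0.00. Beside Nrg3, Nrg4 read 2.78, 2.50 and 2.14 CPM in SCA1 and 3.68, 4.09 and 4.73 CPM in WT mice, a log2FC of -0.75 ± 0.23 that was -0.77 in sedentary mice. Erbb4, the receptor of Nrg3, read 84.6, 91.6 and 92.6 CPM against 74.6, 74.9 and 70.4 CPM, a log2FC of 0.29 ± 0.14.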

How the data were processed

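Cerebellar RNA of 12 mice was sequenced as ribosomal RNA-depleted, directional paired-end libraries. The deposited files hold read pair counts per gene, and per the submitters' processing notes the authors used FastQC 0.11.9, fastp 0.24.0 and STAR 2.7.10a on GRCm39, while the annotation release is not given in the sources used here. The reverse-strand column was used without its 4 summary lines, which held pairs that were unmapped, at more than 1 place, in no gene or ambiguous. Of 56941 genes, 56323 matched GENCODE M39 for names and positions, and 618 did not. Library totals of the exercise mice were 22944278 to 25312382 counts, and the number of mice, 3 in each group, limits precision more than depth. Replicates are single mice.

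All 12 libraries were fitted as 4 groups with edgeR 4.0.16 (R 4.3.3, filterByExpr, TMM, quasi-likelihood test, Benjamini-Hochberg), which tested 20341 genes. For DEGs the adjusted p was limited to 0.05 and the size of the log2FC had to be over 0.5. CPM are TMM-scaled and not per gene length, so levels are not compared between genes. Single values were compared with an exact two-sided permutation test. The script was checked on simulated data. Alternatives were DESeq2 1.42.0, other normalization, filters, strand, covariates, thresholds and left-out mice.

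Named genes were Atxn1, the sedentary DEGs, up to 10 genes each way of lowest unadjusted p (absolute log2FC over 0.5, average log2 CPM of at least 1, no overlap), the Purkinje cell genes (2 of the 16 are not reported singly here) and, from the other lists, those of lowest p. Other list members were named for their role, and the genes called without mice 16 and 55 and the Kcnip4 models were named after their values were seen. The members and gene lists were chosen with earlier results of these data known. The study's methods state that 2 samples had low RNA integrity and a modified preparation, and the labels do not name them.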

Additional observations from a re-analysis of the deposited data

Results flagged for a closer look

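In SCA1 exercise mouse 55, 6.33% of read pairs mapped to more than 1 place, compared with 2.26% to 2.92% in the other 5 exercise mice. These pairs are counted in no gene and were outside the comparisons above. Groups of 3 mice are too small for a test of single outliers. The value came close to the 6.38% of SCA1 sedentary mouse 16, the other library that stood apart on the first principal component, and its part in the results was not tested.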

How the results depend on the processing

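The 0 DEGs of the exercise comparison became 2 with DESeq2 on all 12 libraries, 78 with DESeq2 on the 6 exercise libraries, 3 with the mice blocked by bands of their numbers, 37 without mice 16 and 55, and 129 with DESeq2 without mice 16 and 55, an alternative chosen after seeing the data. Leaving out each mouse in turn gave 0 to 5 DEGs, with 5 without SCA1 exercise mouse 55 and 1 each without SCA1 sedentary mouse 16 and WT exercise mouse 121. The other alternatives gave 0. For the interaction, DESeq2 gave 2, and 232 without mice 16 and 55, and leaving out each mouse gave 0 to 1. The 7 sedentary DEGs, used to choose genes, became 206 with DESeq2, 76 with all genes of at least 1 count, 2 with Y-linked expression as a covariate, 55 with that block, 205 without mice 16 and 55 and 27 at an adjusted p under 0.1, and 0 to 42 when each mouse was left out. The cause of these differences between settings was not tested. The log2FC of Atxn1 was -0.030 without SCA1 exercise mouse 122, and -0.030 to 0.19 over all mice left out in turn. That of Foxp2 was -0.026 with the block, -0.0022 without WT exercise mouse 121, -0.048 without SCA1 exercise mouse 122 (-0.048 to 0.12 over all mice left out), -0.0052 on the 6 libraries with Y-linked expression and -0.047 with the summed Hox and brainstem list as a covariate. Of the values of 40 named genes under 26 alternatives, 981 kept their direction and side of the threshold, 53 newly passed it, 0 were lost and 6 changed sign. None of the 40 passed the threshold in the main fit, so none could be lost. Of the list medians, 656 moved by less than the spread between mice and 175 by more. No paired analysis was possible because each mouse number is unique to 1 mouse and is shared by no groups.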
